A study of Mus musculus with 6 samples.

Results

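The cells described here were 348 fibroblast-like cells of the mouse mammary gland that carried at least 3 of 5 genes of a matrix fibroblast panel (Crabp1, Mmp11, Cthrc1, Spon1 and Lrrc15). They are called matrix-panel fibroblasts. They were taken from 22244 cells that passed quality limits, out of 23835 cell barcodes. A cell passed with at least 200 detected genes and under 10% of its unique molecular identifiers (UMIs, the count of captured RNA molecules) from mitochondrial genes. It then needed at least 2 UMIs of Dcn (decorin), and no UMI of Epcam (epithelium), Ptprc (leukocytes), Pecam1 (endothelium) or the SV40 large T antigen, which left 5602 Dcn-positive cells. Of these, a matrix-panel fibroblast had at least 3 panel genes with 1 UMI or more, and at most 2 of 6 genes of other fibroblasts (Pi16, Dpt, Prg4, Ptgis, Fndc1 and Akr1c18). The choice of the cells used these 11 genes, so the levels that separate the chosen cells from the other 5254 Dcn-positive cells are described without a test. What was tested between both kinds of cell was the difference in their change from state to state. The choice also set which cells were the others, so this difference is not free of it.

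All mice were female C3(1)-Tag mice on the FVB/NJ background, in which the C3(1) promoter drives the SV40 large T antigen in the mammary epithelium, so that no group lacked the transgene. There were 2 droplet single-cell RNA libraries for each of 3 states. Prepuberty libraries were made from whole glands at 5 weeks of age, DCIS libraries from whole glands at 14 weeks that held in situ lesions, and Tumor libraries from palpable tumours after more than 18 weeks. A Tumor library is therefore a tumour and the other libraries are glands, and tissue, age and state cannot be told apart. The labels do not say that the libraries of a state came from separate animals, so p-values measure only the spread between libraries, which may be technical. The study's methods name a different kit version for Tumor 2 and a different dissociation for tumours than the labels do, and the effect of that dissociation cannot be told apart from the state. The kit differs within the Tumor state and cannot be told apart from that library, which the main fits of state leave out.

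Matrix fibroblasts are connective tissue cells that secrete and remodel the collagen scaffold around ducts. CTHRC1 is a secreted glycoprotein found where matrix is being rebuilt, MMP11 (stromelysin 3) is a secreted protease first known from the stroma of breast carcinoma, LRRC15 is a membrane protein of activated fibroblasts, SPON1 is a secreted matrix protein, and CRABP1 is a carrier of retinoic acid in the cytoplasm. Periostin, the product of Postn, links collagens to other matrix proteins. Myofibroblasts are fibroblasts that have gained contractile proteins such as smooth muscle actin (Acta2), and inflammatory fibroblasts secrete chemokines and acute phase proteins. Fibroblasts of tumours are commonly described along these lines.

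The label given to these cells rests on Cthrc1, Mmp11 and Lrrc15. The promoters of Mmp11 and Lrrc15 (RefSeq, GRCm38.p6) are shown first, since the promoter set used here held none for Cthrc1. They are followed by Postn, the marker that the choice of cells did not use. Each window ran from 250 bases before to 50 bases after a transcription start and is written 5′ to 3′ on the strand of the gene. The Mmp11 window lay at chr10:75932453-75932752 (minus strand), the Lrrc15 window at chr16:30283205-30283504 (minus strand), and the window at the second Postn start at chr3:54360857-54361156 (plus strand). Capitals mark the TATA motif TATAAA.
Mmp11: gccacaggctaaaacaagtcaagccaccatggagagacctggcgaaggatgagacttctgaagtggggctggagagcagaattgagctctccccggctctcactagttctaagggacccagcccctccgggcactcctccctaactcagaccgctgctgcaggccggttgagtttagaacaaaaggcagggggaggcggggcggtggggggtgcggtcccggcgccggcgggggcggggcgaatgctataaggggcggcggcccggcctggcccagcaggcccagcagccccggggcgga
Lrrc15: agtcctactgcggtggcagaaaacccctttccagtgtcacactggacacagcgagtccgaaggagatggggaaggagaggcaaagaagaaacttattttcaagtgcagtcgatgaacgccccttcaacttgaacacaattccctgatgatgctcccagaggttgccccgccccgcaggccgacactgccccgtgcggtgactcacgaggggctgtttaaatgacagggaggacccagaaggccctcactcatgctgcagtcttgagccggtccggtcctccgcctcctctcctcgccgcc
Postn: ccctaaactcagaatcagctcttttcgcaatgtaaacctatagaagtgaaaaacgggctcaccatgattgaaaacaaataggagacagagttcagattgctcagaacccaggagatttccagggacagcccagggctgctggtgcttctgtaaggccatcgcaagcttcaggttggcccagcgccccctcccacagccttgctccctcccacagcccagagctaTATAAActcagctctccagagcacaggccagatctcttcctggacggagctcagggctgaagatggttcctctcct
TATAAA was found in the second Postn window, beginning 26 bases before the start (position -26), and in none of the other windows searched (Mmp11, Lrrc15, Crabp1, Acta2 and the first Postn start). On both strands, 13.6% of 32544 promoters held TATAAA, 16.7% held TGTGGT (a core of RUNX sites) and 1.64% held the strict consensus of the CArG box (a serum response factor motif, here CC, then 6 bases that are each A or T, then GG). Neither TGTGGT nor that strict consensus had an exact match in these 6 windows, and forms of the CArG box that differ from it were not searched. A match is a description of letters and was not tested as a site.

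Matrix-panel fibroblasts were found in every library, in very different numbers. There were 143 in Prepuberty 1, 6 in Prepuberty 2, 90 in DCIS 1, 73 in DCIS 2, 29 in Tumor 1 and 7 in Tumor 2. As a share of Dcn-positive cells this was 7.14% of 2002 cells in Prepuberty 1 (exact 95% binomial interval 6.05% to 8.36%) and 0.361% of 1661 in Prepuberty 2 (0.133% to 0.785%). It was 16.5% of 544 in DCIS 1 (13.5% to 19.9%) and 6.155% of 1186 in DCIS 2 (4.86% to 7.68%). It was 35.4% of 82 in Tumor 1 (25.1% to 46.7%) and 5.51% of 127 in Tumor 2 (2.24% to 11.03%). The intervals cover counting error only. The highest share, in Tumor 1, and 1 of the low shares, in Tumor 2, came from the same state, and the ranges of all 3 states overlapped.

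The mean share was 3.75% ± 4.795 in Prepuberty, 11.3% ± 7.34 in DCIS and 20.4% ± 21.1 in Tumor (SD, n = 2 libraries each). The difference of 16.7 percentage points between Tumor and Prepuberty gave p = 0.667 in a two-sided exact permutation test, that of 7.6 points between DCIS and Prepuberty p = 0.667, and that of 9.09 points between Tumor and DCIS p = 1.0. With 2 libraries per state the smallest p this test allows is 0.333, so no share difference could pass a threshold of 0.05. Since a deeper cell is more likely to show 3 panel genes, every cell was also thinned to 3000 UMIs before the choice, and the shares then were 2.35%, 0.141%, 11.5%, 4.06%, 23.2% and 1.695% in the same order of libraries. The order of the libraries within each state was the same. After thinning, both DCIS shares were above both Prepuberty shares, a difference of 6.55 points (exact permutation test, p = 0.333, the smallest possible). The Tumor shares still overlapped those of both other states. Without Tumor 1 the difference between Tumor and DCIS was -5.84 points, and over all kept cells in place of Dcn-positive cells the difference was -1.87 points. It was 5.0 points among cells without a UMI of Cdkn2a or of 4 keratin genes (0 of 27 Dcn-positive cells in Tumor 2), where that between Tumor and Prepuberty was 11.9 points.

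**Figure D1:**
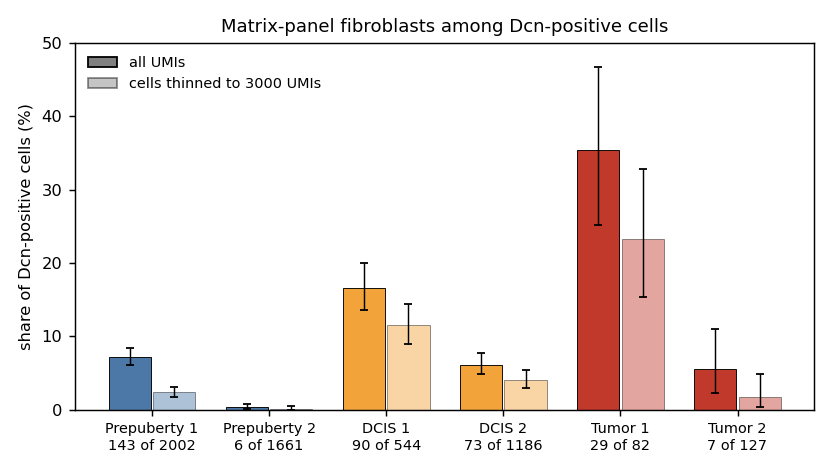
Share of Dcn-positive cells (percent, y axis) that were matrix-panel fibroblasts in each of the 6 libraries, with all UMIs (solid bars) and after thinning each cell to 3000 UMIs (pale bars), with exact 95% binomial intervals as error bars. Tumor 1 stands highest at 35.4%, and Prepuberty 2 lowest at 0.361%.

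Fibroblast genes were detected in the members of every library, with markers of other cell types beside them in the libraries of few members. Dcn, a proteoglycan that binds collagen fibrils, was at 5162, 6617, 5157, 6883, 1442 and 6066 CPM (the UMIs of a gene scaled to a fixed total over the summed members) in the libraries, written in the order used for the shares, which is also the order of every set of 6 values that follows. The level in Tumor 1 was the lowest and below that of the other Dcn-positive cells of the same library (4723 CPM). Lum, another collagen-binding proteoglycan, was detected in 29 of 29 members of Tumor 1 and 4 of 7 of Tumor 2. Of 8 markers of pericytes and smooth muscle, 6 were detected in Tumor 1, with 65.4 CPM in sum against 191 CPM in the other Dcn-positive cells. There Notch3 and Kcnj8 were at 0 and Rgs5 had 1 UMI. Over the 6 libraries that sum ran from 23.2 to 65.4 CPM. The summed macrophage markers were at 14.2 to 148 CPM, against 7613 to 29100 CPM in immune cells. Neutrophil markers were at 0 in 5 libraries. In the 6 cells of Prepuberty 2 the summed endothelial markers were at 226 CPM, against 24.5 CPM in the other Dcn-positive cells. In the 7 cells of Tumor 2 the cartilage and bone markers summed to 583 CPM, of which Ibsp (bone sialoprotein) made 512 CPM in 2 cells, and the myoepithelial markers to 327 CPM. The T cell markers were there at 199 CPM, all of it Trbc2 in 6 of the 7 cells, beside 568 CPM in immune cells. The part of these transcripts in the results was not tested.

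Tumor 2 stood apart. All 7 of its members had a UMI of Cdkn2a, Krt8, Krt18, Krt5 or Krt14, genes that were looked for because T antigen acts in the epithelium, against 43 of 143, 0 of 6, 30 of 90, 17 of 73 and 20 of 29 in the other libraries. Its members held Cdkn2a at 676 CPM and Krt14, a basal keratin, at 242 CPM, while Krt14 was at 6.23 CPM or less in the members elsewhere. The other Dcn-positive cells of Tumor 2 held them at 952 and 222 CPM, and its Dcn cells with a T antigen UMI, which were 95 of 222 (42.8%), at 1396 and 306 CPM. Of the Cdkn2a UMIs of Tumor 2, 69.5% came from 1 cell. In Tumor 1, Cdkn2a was at 115 CPM and in 16 of 29 members. After thinning, it was in 17.9% of the Tumor 1 members and in 11.9% of immune cells of that library, which should lack it. The part of epithelial RNA in the Tumor gene changes was not tested, because only 9 members of Tumor 1 were free of these UMIs. A further 5 cells in Tumor 1 and 4 in Tumor 2 met every other condition but had a T antigen UMI and were left out.

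The depth behind the members was 1635931 UMIs in Prepuberty 1, 70879 in Prepuberty 2, 879595 in DCIS 1, 612773 in DCIS 2, 321123 in Tumor 1 and 140610 in Tumor 2. The median per member ran from 7758 UMIs in DCIS 2 to 13910 in Tumor 2. Of 21967 distinct barcodes, 275 were seen in more than 1 library. These included 10 members, and no barcode was a member in 2 libraries. Because a handful of cells decides a sum, Prepuberty 2 and Tumor 2 (6 and 7 members) were left out of the state tests below. Their levels are given for some of the genes only, with results of the fit that includes them.

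The label of the cells held in part. The panel genes were carried in different combinations in the 6 libraries. These levels are a description, since the genes chose the cells.

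Mmp11 was mainly detected in the gland libraries. Its level was 715, 776, 491, 460, 15.6 and 14.2 CPM, and it was detected in 140 of 143, 6 of 6, 74 of 90, 65 of 73, 4 of 29 and 2 of 7 members. Both Tumor libraries lay below all 4 others, with no overlap. In Tumor 1, the other Dcn-positive cells held 23.9 CPM, more than the members. Crabp1 stood at 144, 621, 644, 654, 68.5 and 2190 CPM, lowest in Tumor 1 and highest in Tumor 2, so the states overlapped.

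Cthrc1 ran the other way in Tumor 1. Its level was 281, 395, 84.1, 104, 1594 and 413 CPM, and it was in all 29 members of Tumor 1 and all 7 of Tumor 2, but in 33 of 90 members of DCIS 1 and 34 of 73 of DCIS 2. In Tumor 1 it did not set the members apart, since the other Dcn-positive cells were at 1657 CPM. Immune cells held at most 3.52 CPM. Lrrc15 was at 62.4, 14.1, 224, 37.5, 408 and 42.7 CPM. It was in 27 of 29 members of Tumor 1 and in 61 of 143, 1 of 6, 51 of 90, 16 of 73 and 4 of 7 elsewhere. The libraries of DCIS differed more from each other in Lrrc15 than Tumor 2 did from DCIS 2. Spon1 was at 100, 155, 771, 441, 601 and 49.8 CPM, and was detected in 89 of 90 members of DCIS 1 and 68 of 73 of DCIS 2. In immune cells Spon1 was at 42.2 CPM in Tumor 1 and at 5.78 CPM or less in the other libraries.

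Few cells carried the 3 genes of the label together. Cthrc1, Mmp11 and Lrrc15 were all detected in 49 of 143 members in Prepuberty 1, 1 of 6 in Prepuberty 2, 9 of 90 in DCIS 1, 8 of 73 in DCIS 2, 2 of 29 in Tumor 1 and 0 of 7 in Tumor 2. The pair Mmp11 and Crabp1 was found in 74, 6, 66, 55, 0 and 1 members, and the pair Cthrc1 and Lrrc15 in 51, 1, 14, 9, 27 and 4. The most common exact set was Crabp1, Mmp11 and Cthrc1 in Prepuberty 1 (32 cells), Crabp1, Mmp11 and Spon1 in DCIS 2 (32 cells), and Cthrc1, Spon1 and Lrrc15 in Tumor 1 (17 cells). All 5 genes were present in 9, 1, 7, 5, 0 and 0 members. At the limit of the rule, 99, 3, 40, 51, 22 and 5 members had exactly 3 panel genes.

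Genes of the other panel were not absent. Fndc1 was detected in 25 of 29 members of Tumor 1, at 430 CPM against 233 CPM in the other Dcn-positive cells. Pi16, a marker of adventitial fibroblasts, was in 51 of 90 members of DCIS 1 at 323 CPM, against 120 CPM in the other Dcn-positive cells. The limit of 2 such genes removed 18, 2, 18, 4, 11 and 2 cells that had 3 or more panel genes.

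**Figure D2:**
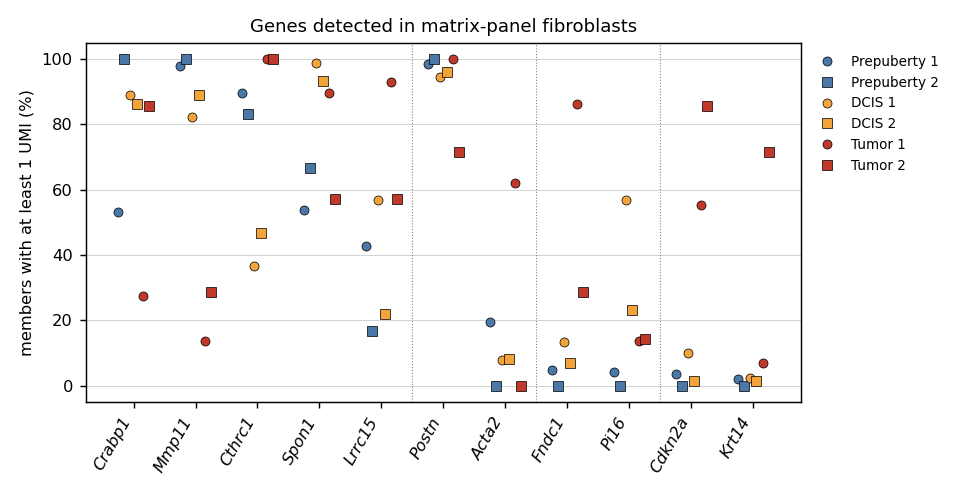
Percent of the members of each library (y axis) with at least 1 UMI of the panel genes, Postn, Acta2, Fndc1, Pi16, Cdkn2a and Krt14 (x axis), with 1 point per library. Mmp11 was detected in 97.9% of members in Prepuberty 1 and 13.8% in Tumor 1, and Lrrc15 in 42.7% and 93.1%.

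Postn, which the rule did not use, was higher in the members than in the other Dcn-positive cells of 5 libraries. Its level in the members was 2895, 2808, 2240, 1826, 3575 and 498 CPM, against 653, 51.1, 505, 226, 2095 and 664 CPM in the others. Tumor 2 was the exception. In both Prepuberty and both DCIS libraries Postn was higher in cells with more panel genes. It stood at 380, 824, 1366, 2415, 3630 and 5847 CPM with 0 to 5 panel genes in Prepuberty 1, and at 162, 323, 683, 1266, 2836 and 3923 CPM in DCIS 2. In Tumor 1 it was 3094 CPM with 1 panel gene and 3430 CPM with 3. The median depth of these cells was 7882, 11737, 11794, 10908, 9736 and 10100 UMIs in Prepuberty 1, where it was not higher at 3 to 5 genes than at 1 or 2, and ran from 5408 at 0 genes to 8921 at 5 in DCIS 2. The values are a description only, since the cells of a library share it.

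**Figure D3:**
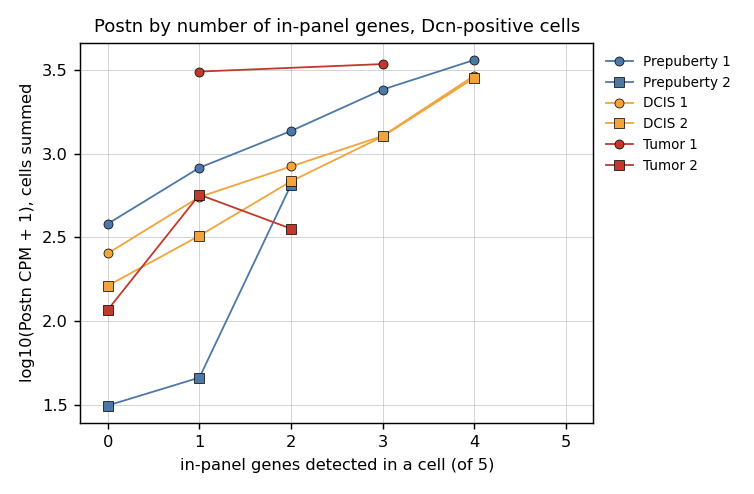
Postn, as log10(CPM + 1) of the summed cells (y axis), by the number of panel genes detected in a cell (x axis, 0 to 5) for each library, with bins of at least 10 Dcn-positive cells. Both Prepuberty and both DCIS libraries slope upward, and Tumor 1 lies at the top with 3094 CPM at 1 gene and 3430 CPM at 3.

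Against the other Dcn-positive cells of the same library, 9 of 2642 genes with at least 50 CPM were higher by 1 log2 unit or more in each of Prepuberty 1, DCIS 1, DCIS 2 and Tumor 1, and 12 were lower. This separation follows from the choice of the cells and has no test. The gene with the largest weakest ratio was Gng11, a G protein subunit, with 138 to 807 CPM in the members of these 4 libraries against 29.6 to 263 CPM in the other Dcn-positive cells. Ptk7 (a receptor-like Wnt co-receptor), Pla2g7 (a secreted phospholipase), Serpine2 (a protease inhibitor) and Rgcc followed, with weakest log2 ratios of 1.42, 1.32, 1.23 and 1.15. The others were Tnfrsf21 (a death receptor), Wisp1 (a matricellular protein), Mrc2 (a collagen uptake receptor) and Sdc1 (a cell surface proteoglycan), at 1.14, 1.09, 1.07 and 1.01. In the libraries of few members Serpine2 went the other way, with a log2 ratio of -1.40 in Prepuberty 2 and -0.24 in Tumor 2. Col1a1 was higher by 0.84 to 3.001 log2 units.

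The genes that were lower in the members included markers of adventitial fibroblasts and secreted inflammatory proteins. The neutrophil chemokine Cxcl3 was at 1.83, 0, 1.63 and 3.11 CPM in the members and at 182, 477, 317 and 45.9 CPM in the others of Prepuberty 1, DCIS 1, DCIS 2 and Tumor 1. Clec3b, Ly6c1, Ptx3 (a long pentraxin), Gsn (gelsolin) and Cd34 were lower in the same libraries, with weakest log2 ratios of -1.72, -1.66, -1.61, -1.32 and -1.30. In Prepuberty 2 Clec3b was not lower (log2 ratio 0.16). The median log2 ratio of the 8 fibrillar collagens measured was 1.16, 3.39, 1.21, 2.02, 0.42 and 0.87 in the 6 libraries, beside a median of 0.08, -0.06, 0.17, 0.06, 0.06 and -0.06 over the 5176 genes with at least 20 CPM on average in either class, the limit also set for the lists. That of the 14 adventitial genes was -1.51, -0.80, -1.36, -1.16, -2.46 and -1.29. For the 29 inflammatory fibroblast genes it was -0.624, -1.823, -0.686, -0.865, -0.537 and -0.841. Not every gene of that list was lower, since 6, 6, 8, 7, 5 and 6 of the 29 were higher in the members.

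The first comparison of states asked how the members of the tumour differed from those of the glands with in situ lesions. In Tumor 1 the members held more fibrillar collagen and contractile transcripts than in either DCIS library, and less of some secreted inflammatory and interferon-induced transcripts, such as Saa3, Ccl11 and Ifit3. Of 7507 genes tested, 128 were higher (1.71%) and 142 lower (1.89%) in Tumor (edgeR quasi-likelihood test, adjusted p under 0.05), or 3.6% in either direction. The median gene moved by -0.09 on the log2 scale. The fit used Tumor 1, DCIS 1, DCIS 2 and Prepuberty 1. The spread came from the pair of DCIS libraries alone (1 residual degree of freedom), and the lone Tumor and Prepuberty libraries were assumed to vary like them. With all 6 libraries 209 genes passed, 141 of them among the 270. The count also moved with a few cells: with the 3 members of Prepuberty 1 and 4 of DCIS 1 that had high doublet scores left out, 122 genes passed, while 2 other ways of scoring gave 337 and 493.

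Among fibrillar collagens, 4 of 8 rose and none fell (median 1.35). Col1a1, the main chain of type I collagen, stood at 2016 and 1643 CPM in DCIS 1 and DCIS 2 and at 13400 CPM in Tumor 1, while Tumor 2 had 3072 CPM and the Prepuberty libraries 1729 and 3922 CPM. Tumor 1 was above every other library, and Tumor 2 was below Prepuberty 2. The log2 fold change between Tumor and DCIS was 2.62 (SE 0.25, edgeR adjusted p = 0.00807). Col1a2, its partner chain, rose by 1.70 (SE 0.24, edgeR adjusted p = 0.0155), Col3a1 by 1.67 (edgeR adjusted p = 0.0159) and Col5a1, which starts fibrils, by 3.01 (edgeR adjusted p = 0.00925). None of the 4 passed once Tumor 2 and Prepuberty 2 were included, where Col1a1 had a log2 difference of 1.90 (edgeR adjusted p = 0.195). Col12a1, which decorates fibrils, rose by 2.44 and did not pass with all 6 libraries either. Col18a1, a basement membrane collagen, fell by 4.07 (log2 -4.07) and passed in both fits.

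The contractile list had the second highest median of the 18 lists (2.59), with 9 of 15 measured genes higher and none lower. Acta2 was at 88.6, 0, 39.8, 13.1, 1956 and 0 CPM. Tumor 1 was far above the others, and Tumor 2 had no Acta2 UMI. It was in 18 of 29 members of Tumor 1, and 1 cell held 20.2% of its UMIs. The change was 5.90 (SE 0.51, edgeR adjusted p = 0.00792), and 14 of the 18 Acta2-positive cells had a Cdkn2a or keratin UMI, against 20 of all 29. Actg2, the enteric smooth muscle actin, had 83 UMIs in 11 members of Tumor 1 and none in any other library, at least 129-fold above DCIS with the floor of 3 counts taken over the group. Of these, 44.6% came from 1 cell. Tagln was at 1429 CPM in Tumor 1 against 159 and 14.7 CPM in DCIS, and did not pass (log2 difference 3.76, edgeR adjusted p = 0.0764). Tpm2, a tropomyosin, had 87.5 and 62.0 CPM in the DCIS libraries and then 648 and 498 CPM in Tumor 1 and Tumor 2. It rose by 2.85 (SE 0.33, edgeR adjusted p = 0.00983), and both Tumor libraries exceeded all 4 others. With all 6 libraries, 4 of the 9 passed (Tpm1, Tpm2, Actn1 and Cnn2), and Acta2, Actg2 and Myl9 did not.

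**Figure D4:**
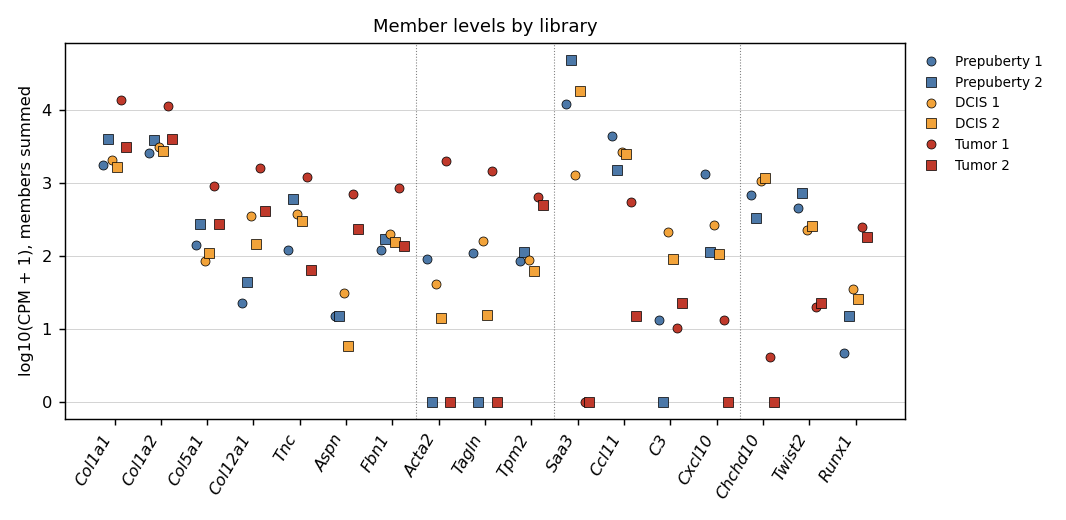
Levels of genes that differed between states, in the summed members of each library, drawn as log10(CPM + 1), with 1 marker per library. Acta2 and Col1a1 stand highest in Tumor 1 (1956 and 13400 CPM), while Tumor 2 has 0 and 3072 CPM.

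Matrix glycoproteins rose for 7 of 26 genes (median 0.66) and none fell. Ctgf, a matricellular protein induced by TGF-beta and by YAP, had 43.2 and 39.2 CPM in the DCIS libraries and then 405 and 78.2 CPM in Tumor, with a change of 3.04 (SE 0.32, edgeR adjusted p = 0.00925). Thbs1 (thrombospondin) rose by 3.16, Wisp1 by 2.46, Fbn2 (a fibrillin) by 4.72 and Tnc (tenascin C) by 1.58. Of the 7, only Fbn2 passed with all 6 libraries, and Tnc was at 64.0 CPM in Tumor 2 against 374 and 302 CPM in DCIS. Postn did not pass (0.57, edgeR adjusted p = 0.264). Among proteoglycans, Aspn (asporin) had 29.6 and 4.90 CPM in the DCIS libraries and then 707 and 235 CPM in Tumor, higher in both Tumor libraries than in any other. It rose by 5.00 (SE 0.63, edgeR adjusted p = 0.0116) and passed with all 6 libraries. Under DESeq2 it did not pass, and neither did Tnc, Myl9, Tgfb3 or Il6.

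Of 28 inflammatory fibroblast genes tested, 7 were lower and none higher (median -1.89). Saa3, an acute phase apolipoprotein, was at 12030, 48120, 1287 and 17770 CPM in the glands and at 0 in both Tumor libraries, at least 862-fold lower in Tumor 1 than in DCIS. Ccl11 (eotaxin) was at 4307, 1496, 2623, 2446, 542 and 14.2 CPM, with both Tumor libraries lowest, and fell by 2.48 (log2 -2.48, SE 0.29, edgeR adjusted p = 0.00983). Il6 fell by 2.13. Il1rl1, the receptor of interleukin 33, fell by 4.25. Ccl2 was at 1632 CPM in Tumor 1 and 10260 and 4104 CPM in DCIS and did not pass (edgeR adjusted p = 0.0677), nor did Cxcl1 (log2 difference -0.31, edgeR adjusted p = 0.611). Of the 7, C3, Csf3 and Saa3 passed with all 6 libraries, and Ccl11 did not (edgeR adjusted p = 0.15). Interferon-induced genes fell for 7 of 26 (median -1.16), among them Ifit3 from 359 and 263 CPM to 34.3 CPM in Tumor 1 and 0 in Tumor 2, and the antigen presentation genes H2-D1 (-2.20), H2-K1 (-2.13) and B2m (-1.69). Ifit3, Ifit2 and Rsad2 passed with all 6 libraries. The 3 antigen presentation genes did not. H2-D1 and H2-K1 are close relatives whose reads may be split, and H2-D1 was at 3399 CPM in Tumor 2.

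Of 29 matrix proteases and inhibitors 2 were higher and 6 lower, and of these Adamts4 and Mmp19 (both lower) passed with all 6 libraries. Mmp3 (stromelysin 1) had 4282 and 11960 CPM in DCIS and 265 CPM in Tumor 1, a fall of 5.19, but 2333 CPM in Tumor 2. Mmp10 was at 183 and 103 CPM in DCIS, with 1 UMI in Tumor 1 and 149 CPM (21 UMIs) in Tumor 2. Neither passed with all 6 libraries (edgeR adjusted p = 0.106 and 0.448). In the TGF-beta list, 1 of 27 rose and 2 fell. Tgfb3 rose by 3.34 (edgeR adjusted p = 0.0241), and the receptor gene Tgfbr1 fell from 190 UMIs in DCIS to 3 in Tumor 1, a ratio of 13.6 (counting interval 4.59 to 66.7). Both, and Bmp7, the other gene that fell, passed with all 6 libraries. Of 13 Wnt pathway genes none passed.

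Of 24 mesenchymal transcription factors 3 rose (Runx1, Klf2 and Klf4) and Twist2 fell. Runx1 was at 3.67, 14.1, 34.1, 24.5, 246 and 178 CPM, and both Tumor libraries were above all others. It rose by 2.80 over DCIS (SE 0.35, edgeR adjusted p = 0.0116). Twist2, a factor of mesenchymal progenitors, was at 451, 734, 225, 255, 18.7 and 21.3 CPM, lowest in both Tumor libraries, and fell by 3.92 (log2 -3.92, SE 0.45, edgeR adjusted p = 0.00983). Runx1 and Twist2 passed with all 6 libraries. Pdgfra, a receptor that marks most fibroblasts, fell by 2.77 in Tumor 1 (68.5 CPM against 447 and 339 CPM) and was at 206 CPM in Tumor 2. It did not pass with all 6. Of 21 growth factors and receptors 2 rose and 2 fell. Ptn (pleiotrophin) was at 42.8, 14.1, 7.96, 14.7, 271 and 128 CPM and Hbegf, a ligand of the EGF receptor, at 9.78, 14.1, 11.4, 1.63, 162 and 242 CPM. In both genes the 2 Tumor libraries lay above the other 4. Ptn rose by 4.37 (SE 0.42, edgeR adjusted p = 0.00807) and Hbegf by 4.22 (SE 0.61, edgeR adjusted p = 0.0174), and both passed with all 6 libraries.

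The other Dcn-positive cells moved the same way for several of these genes, whose changes within the members are therefore not shown to be particular to them. Their Runx1 level went from 15.1 and 12.4 CPM in the DCIS libraries to 251.2 and 173 CPM in the Tumor libraries, and that of Twist2 from 157 and 161 CPM to 17.9 and 28.7 CPM. Hbegf went from 5.85 and 6.82 CPM to 138 and 227 CPM. Col1a1 went from 705 and 201 CPM to 7469 and 1225 CPM, and Col3a1 from 1127 and 422 CPM to 13990 and 4402 CPM, while the members of Tumor 1 held Col3a1 at 8103 CPM. Saa3 went from 2449 and 5808 CPM to 51.8 and 7.34 CPM. Chchd10, described further on, went from 544 and 707 CPM to 3.99 and 4.01 CPM. Mmp11 in these cells was at 47.1, 51.9, 23.9 and 6.01 CPM in the same libraries.

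Genes that respond to tissue dissociation also moved, in both directions (3 of 24 higher, 3 lower). Fos was at 309 and 155 CPM in DCIS and 1532 CPM in Tumor 1, while the heat shock genes Hspb1, Hspa1b and Hsph1 fell by 2.25, 2.99 and 2.45. The 3 heat shock genes passed with all 6 libraries and Fos, Fosb and Btg2 did not. Of 11 cell cycle genes 4 rose and none fell (Birc5, Cdk1, Stmn1 and Ube2c). Cdk1 was at 4.55 and 4.90 CPM in DCIS, 112 CPM in Tumor 1 and 299 CPM in Tumor 2, and 1 cell held 41.7% of its UMIs in Tumor 1 and 90.5% in Tumor 2. Cdkn2a was also higher in Tumor 1 and Tumor 2 (115 and 676 CPM) than in DCIS 1 and DCIS 2 (15.9 and 1.63 CPM). The summed luminal epithelial markers were at 74.7 and 107 CPM in Tumor and at 63.7 and 68.5 CPM in DCIS. The part of epithelial RNA in the cell cycle levels was not tested.

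Several of the changes of largest size rested on few UMIs or cells, or on genes whose reads may be shared. Gzme, a granzyme, had 141 UMIs in 13 members of Tumor 1, with 44.0% from 1 cell, and did not pass under DESeq2. Its neighbours on chromosome 14, Gzmd and Mcpt8, had 80 and 27 UMIs. These genes belong to a family of near copies, so the split of reads among them is uncertain. Prc1 (cytokinesis) had 18 UMIs, 88.9% of them in 1 cell. Moxd1 and Epha3, each in 17 of 29 members of Tumor 1, were spread over more cells. Chchd10, a mitochondrial protein gene, was at 688, 325, 1065, 1160, 3.11 and 0 CPM, nearly lost in both Tumor libraries, with 1 UMI in Tumor 1 against 1648 in DCIS, a ratio of 355 (counting interval 63.6 to 14000). It overlaps Mmp11 on the opposite strand by 3367 bases (Mmp11 at chr10:75923222-75936496, minus strand, and Chchd10 at chr10:75933130-75937747, plus strand, in the GENCODE annotation of GRCm38). The RefSeq start of Mmp11, used for its promoter window, lay outside Chchd10, 628 bases from the Chchd10 start. Mmp11 was a gene of the panel and fell in the same libraries, so how far reads of 1 gene were counted for the other was not tested.

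The second comparison set the same tumour cells against the prepubertal gland. Here 112 genes were higher (1.49%) and 69 lower (0.919%) in Tumor (edgeR quasi-likelihood test, adjusted p under 0.05), 2.41% of the 7507 tested in either direction. With all 6 libraries 98 passed, 71 of them shared, and with the high doublet scores left out 18 passed, while the 2 other ways of scoring gave 248 and 380. Prepuberty 1 alone stood for that state.

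Matrix genes were again among those that rose. Higher were 3 of 8 fibrillar collagens, 9 of 26 glycoproteins, 5 of 16 proteoglycans and 7 of 15 contractile genes, and none of these lists had a lower gene. With all 6 libraries this was 0 fibrillar collagens, 2 glycoproteins (Ctgf and Spp1), 1 proteoglycan (Aspn) and 4 contractile genes. Col12a1 was at 21.4 and 42.3 CPM in Prepuberty, 352 and 144 CPM in DCIS, and 1604 and 413 CPM in Tumor, so that both Tumor libraries exceeded both DCIS libraries, which exceeded both Prepuberty libraries. Its change was 6.11 (SE 0.71, edgeR adjusted p = 0.0157). Col8a1 had 3 UMIs in Prepuberty 1 and 439 in Tumor 1, a ratio of 745 (counting interval 253 to 3630). Both passed with all 6 libraries. Ctgf was at 4.28 and 0 CPM in Prepuberty and rose by 6.41 (SE 0.49, edgeR adjusted p = 0.00996). Bgn (biglycan) rose by 3.48, Fbn1 by 2.71 and Lox, which crosslinks collagen, by 3.27, and none of these 3 passed with all 6 libraries. The 2 comparisons share the Tumor library.

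Of 27 genes of the TGF-beta and activin pathway, 4 rose and none fell. Inhba, the activin A subunit, was at 4.89, 42.3, 330, 180, 230 and 562 CPM, and the Prepuberty libraries were below all 4 others. It rose by 5.41 between Prepuberty and Tumor (SE 0.63, edgeR adjusted p = 0.0157). Tgfb2 had 3 UMIs in Prepuberty 1 and 28 in Tumor 1, a ratio of 47.5 (counting interval 14.7 to 244). Inhba and Tgfb2 passed with all 6 libraries, and Tgfb3 and Tgfbr2 did not. Runx1 rose by 5.91 (SE 0.52, edgeR adjusted p = 0.00996) and Twist2 fell by 4.68, and both also passed with all 6. Igf1 (3.09) and the antioxidant Gpx3 (4.42) were higher only with the 4 libraries; Gpx3 was at 1414 CPM in Tumor 1 and 0 in Tumor 2. Interferon genes fell for 4 of 26, among them Cxcl10 (1315 CPM in Prepuberty 1 and 12.5 CPM in Tumor 1, log2 -6.81). Rsad2 had 408 UMIs in Prepuberty 1 and 0 in Tumor 1, at least 26.7-fold lower. Of the 4, Ifit3 and Rsad2 passed with all 6 libraries. Of the dissociation genes 4 of 24 rose, and none of them passed with all 6 libraries. Cdkn2a, from the list of T antigen and epithelial genes, rose by 5.07 (edgeR adjusted p = 0.0467) and passed with all 6 libraries.

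The third comparison, of glands with in situ lesions against prepubertal glands, gave few calls, 12 higher (0.16%) and 2 lower (0.0266%), or 0.186% of 7507 genes (edgeR quasi-likelihood test, 826 at an unadjusted p under 0.05). They depended on the libraries: with all 6 included no gene passed (374 at an unadjusted p under 0.05, and 20 by DESeq2), and none passed with the high doublet scores left out (750 at an unadjusted p under 0.05, and 45 by DESeq2), while the 2 other ways of scoring gave 49 and 102. The edgeR adjusted p was 0.0364 for every called gene but H19 (0.0423).

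Inhba rose by 5.81 (SE 0.60), from 4.89 CPM in Prepuberty 1 to 330 and 180 CPM, with 42.3 CPM in the 6 cells of Prepuberty 2. In the DCIS libraries it was in 31 of 90 and 13 of 73 members. Immune cells held Inhba at 113 and 40.9 CPM there, at 0 CPM in Prepuberty 1 (12 cells) and at 34.7 CPM in Prepuberty 2. The part of background RNA was not tested. Fmod (fibromodulin) had 1 UMI in Prepuberty 1 and 67 in DCIS, a ratio of 73.4 (counting interval 12.7 to 2940). Hsd11b1, which activates glucocorticoid, rose by 3.18 from 57.5 and 113 CPM to 487 and 459 CPM. Mfap4, a microfibril protein, rose by 3.15, and Cpxm1, a secreted carboxypeptidase-like protein, by 2.79.

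Heat shock genes were 3 of the 12. Hspa1a was at 30.0 and 56.4 CPM in Prepuberty and 445 and 803 CPM in DCIS, a rise of 4.52 (SE 0.52), and Hspa1b and Hspb1 rose by 3.58 and 2.98. Hspa1a and Hspa1b are near copies, so the split of reads between them is uncertain. These belong to the dissociation list, and the part of tissue handling was not tested. Id1, a target of BMP signals, fell by 3.54 (log2 -3.54), from 124 CPM to 6.82 and 13.1 CPM, with 28.2 CPM in Prepuberty 2. The imprinted RNA H19 had 216 UMIs in Prepuberty 1 and 3 in DCIS, a ratio of 65.7 (counting interval 22.2 to 321). In Prepuberty 2, 98.6% of its UMIs came from 1 cell. Neither Id1 nor H19 passed under DESeq2. No fibrillar collagen passed (0 of 8, median 0.11): Col1a1 differed by 0.23 (SE 0.26) and Col3a1 by -0.50 (SE 0.24). Nor did any of 15 contractile or 28 inflammatory genes.

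**Figure D5:**
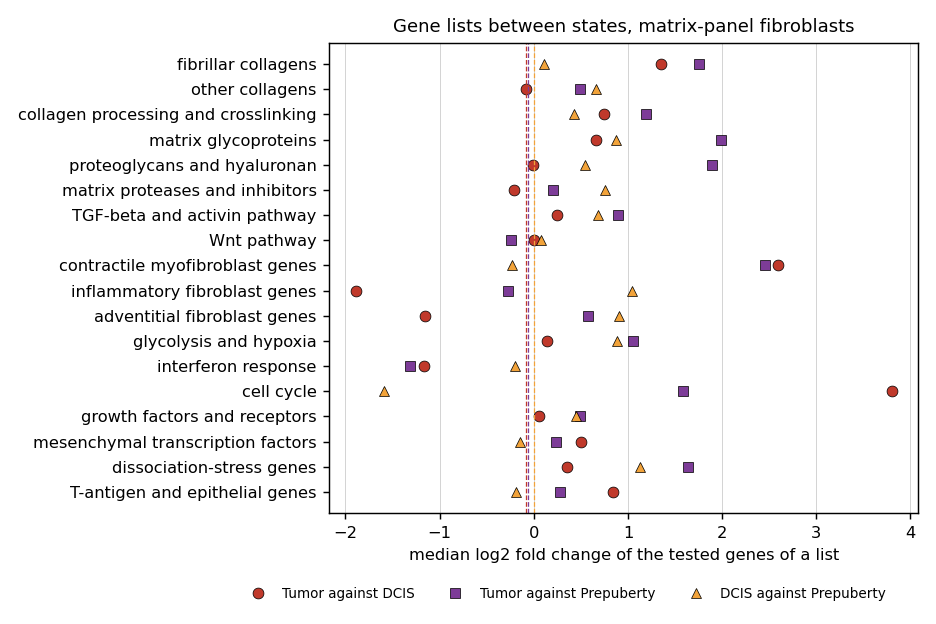
Median log2 fold change of the tested genes of 18 lists (rows) in the members, for the 3 comparisons of states, with genes at 0 UMIs in a state set to their bound and dashed lines at the median of all genes. Contractile genes lie at 2.59 in Tumor against DCIS, and inflammatory genes at -1.89.

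The change between states was also compared with that of the other Dcn-positive cells, in a model with a class by state term. From DCIS to Tumor, 145 of 9846 genes (1.47%) changed differently (edgeR quasi-likelihood test), 27 more upward (0.274%) and 118 more downward (1.2%) in the members. Mgp (matrix Gla protein) was at 8023 and 3946 CPM in the DCIS members and 3279 CPM in Tumor 1, and at 962 and 245 CPM and then 8226 CPM in the other Dcn-positive cells (difference of changes -4.79, SE 0.41, edgeR adjusted p = 0.000159). Sfrp2, a Wnt antagonist, was at 184 and 111 CPM in DCIS and 339 CPM in Tumor 1 in the members, and at 68.6, 13.2 and 2030 CPM in the others (-4.64). With all 6 libraries Mgp passed and Sfrp2 did not (edgeR adjusted p = 0.179). Only 53 other Dcn-positive cells stood for Tumor 1. Of these, 26 had at least 3 genes of the other panel and under 3 panel genes, and 11 had at least 3 of both. In DCIS 1 these were 112 and 18 of 454 cells, and in DCIS 2 240 and 4 of 1113. The choice of the cells therefore shaped this class too, and its part in the differences was not tested. From Prepuberty to Tumor 68 genes (0.691%) changed differently, 18 more upward (0.183%) and 50 more downward (0.508%), and from Prepuberty to DCIS 35 (0.355%), of which 30 were more upward (0.305%) and 5 more downward (0.0508%) in the members. Inhba was among them (4.11, SE 0.43, edgeR adjusted p = 0.000321), with 25.9 CPM in Prepuberty 1 and 90.3 and 55.6 CPM in DCIS in the other cells. Mmp12 (macrophage elastase) was at 6.11, 68.2 and 253 CPM in the members and at 19.8, 5.58 and 10.4 CPM in the others (5.93, SE 0.50, edgeR adjusted p = 6.49e-05). Both passed with all 6 libraries, and the change of Mmp12 within the members did not pass on its own (edgeR adjusted p = 0.12).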

How the data were processed

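Droplet 3′ libraries of dissociated mammary glands and tumours were sequenced, and the authors deposited a matrix of UMI counts per gene and cell for each of 6 libraries, with no normalization. The file headers name Cell Ranger 3.0.2. The submitters' processing notes also list STAR, SAMtools, Picard and Salmon for the series, and the reference build used for these matrices is not given in the sources used here. Gene IDs were matched to the GENCODE annotation of GRCm38 (31011 of 31055 features).

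Cells were chosen as described at the start of the results. The members, the gene lists and the alternatives were chosen with earlier results of these data known. UMIs were summed per library and class, and CPM is the count of a gene scaled to a fixed total for that class. Libraries with under 10 members were left out of the state fits. Sums were scaled by TMM, filtered with filterByExpr and tested with edgeR 4.0.16 (quasi-likelihood test, Benjamini-Hochberg adjustment over all genes, threshold 0.05), in R 4.3.3. Cells were not used as replicates, unlike in the rank tests over cells of the study. Class by state terms came from a fit with a term for each library. Ratios between classes add 5 CPM to both sides. Genes at 0 UMIs in a state are given as a bound against 3 counts over the group, and genes with 1 to 3 UMIs as a ratio with its counting interval. Shares have exact (Clopper-Pearson) 95% intervals, which cover counting error only, and exact two-sided permutation tests (scipy 1.17.1).

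Doublets were kept in the main results. As an alternative, the cells with the highest Scrublet scores (scanpy 1.11.5) were removed in proportion to the barcodes of a library, which took 2.34% to 3.88% of cells, because the automatic threshold called only 2 to 38 cells per library. The scoring was repeated on log-transformed counts and with a second seed. Other alternatives were DESeq2 1.42.0, RLE size factors, no filter on low counts, each library left out, only the states compared, a mitochondrial limit of 5%, at least 4 panel genes, a choice on thinned cells, thinned sums, members without Cdkn2a or keratin UMIs, and all 6 libraries. The self-test of the fits ran on simulated counts.

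Named genes were the 12 largest increases and decreases per state comparison among called genes with at least 20 CPM in the higher state and no overlap between libraries. For each list they were the first 3 genes and up to 4 called genes per direction with the smallest adjusted p. For the class by state term they were the 6 largest differences each way, and for the class the 15 most positive and 10 most negative weakest ratios at 50 CPM or more. Levels of other genes named (marker, panel and epithelial genes) come from lists written for the check of cell types. One gene that the rule names is not reported here.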

Additional observations from a re-analysis of the deposited data

Results flagged for a closer look

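The change between states differed between the matrix-panel fibroblasts and the other Dcn-positive cells for 145 genes from DCIS to Tumor, 68 from Prepuberty to Tumor and 35 from Prepuberty to DCIS (class by state term, edgeR quasi-likelihood test, 9846 genes tested). The genes with the largest differences are given here with their edgeR adjusted p. Several rest on few UMIs, and 53 other Dcn-positive cells stood for Tumor 1. The choice of the cells also shaped that class, and its part was not tested.

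From DCIS to Tumor, the change was more upward in the members for Prc1 (adjusted p = 0.00958, 18 UMIs in Tumor 1), Moxd1 (0.00607), Ddit4l (0.0121, 18 UMIs), Ube2c (0.00984), Fdps (0.0140, 20 UMIs) and Me1 (0.0228, 12 UMIs). It was more downward for Aqp1 (0.0284), Reg1 (0.00980), Pamr1 (0.000825), Sfrp4 (0.0125), Mgp (0.000159) and Sfrp2 (0.000575). Pamr1, a secreted protein of muscle and stroma, was at 47.8 and 78.3 CPM in the members of DCIS and 3.11 CPM (1 UMI) in Tumor 1, while the other Dcn-positive cells held 18.7, 28.4 and 89.7 CPM. Reg1 was at 0 in the members of both Tumor libraries and at 159 and 17.9 CPM in those of DCIS. Aqp1, a water channel, was at 131 and 96.3 CPM in the members of DCIS and at 0 in those of Tumor 1, but at 512 CPM (72 UMIs) in Tumor 2, the highest of the 6 libraries. Ddit4l (edgeR adjusted p = 0.216), Me1 (0.076) and Sfrp2 (0.179) did not pass with all 6 libraries, and the other 9 named did.

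From Prepuberty to Tumor, the change was more upward for Prc1 (0.0338), Ddit4l (0.0151), Fdps (0.0283), Me1 (0.0397), Inhba (0.00563) and Tmem176a (0.00933). It was more downward for Cyp4b1 (0.0315), Spon2 (0.0121), Pamr1 (0.00259), Hp (0.0405), Bhlhe41 (0.00661) and Tmem100 (0.0138). Bhlhe41, a circadian repressor, was at 86.8 CPM in the members of Prepuberty 1 and 18.7 CPM in those of Tumor 1, against 7.71 and 43.9 CPM in the other cells. Prc1 (edgeR adjusted p = 0.201), Ddit4l (0.132), Me1 (0.0534) and Tmem100 (0.229) did not pass with all 6 libraries, and the other 8 named did.

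From Prepuberty to DCIS, the change was more upward for Itgbl1 (0.000970), Mmp12 (6.49e-05), Clec11a (0.00927), Col8a1 (0.00130), Prelp (0.00899) and Inhba (0.000321). Itgbl1, Clec11a, Col8a1 and Prelp were all higher in DCIS 1 than in DCIS 2, and each had at most 3 UMIs in Prepuberty 1. The change was more downward for Rgs2 (0.0333), Slc40a1 (0.0178), Gpc3 (0.0393) and Cxcl2 (0.0380). Cxcl2, a neutrophil chemokine, was at 131, 559 and 318 CPM in the members of Prepuberty 1, DCIS 1 and DCIS 2 and at 340, 4200 and 2394 CPM in the others. With all 6 libraries Gpc3 (edgeR adjusted p = 0.0999) and Cxcl2 (difference of changes -0.79, edgeR adjusted p = 1) did not pass, and the other 8 named did.

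Cells with a UMI of the SV40 large T antigen were outside the comparisons. Of these, 5 in Tumor 1 and 4 in Tumor 2 met every other condition for a matrix-panel fibroblast, and 0 did in the other libraries.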

How the results depend on the processing

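The counts of called genes moved widely with the processing, and the cause was not tested beyond what each alternative changes. With 1 residual degree of freedom the fits rest on the DCIS pair. For Tumor against DCIS (270 genes) the count was 149 with DESeq2, 964 with no filter on low counts, 122 with doublet scores removed, 493 with scores on log-transformed counts, 850 with the choice on thinned cells and 482 with thinned sums. For Tumor against Prepuberty (181) it was 275 with RLE size factors, 111 with DESeq2, 798 with no filter, 18 and 380 with the 2 doublet scorings, 575 with the choice on thinned cells, 545 with thinned sums and 98 with all 6 libraries. For DCIS against Prepuberty (14) it was 58 with RLE size factors, 42 with DESeq2, 347 with no filter, 171 with only the 2 states (without Tumor 1), 0 and 102 with the 2 doublet scorings, 49 with the second seed, 51 with at least 4 panel genes, 247 with the choice on thinned cells, 201 without Cdkn2a or keratin UMIs, 351 with thinned sums and 0 with all 6 libraries. For the class by state term, no filter gave 293, 175 and 109 genes and the choice on thinned cells 410, 239 and 85, in the same order of comparisons. All 6 libraries gave 113 for Tumor against Prepuberty, and members without Cdkn2a or keratin UMIs gave 110 for DCIS against Prepuberty. Leaving out 1 library gave 359 genes for Tumor against DCIS (without Prepuberty 1), and 165 and 48 for the class by state term of Tumor against DCIS and DCIS against Prepuberty. Without either DCIS library no residual degree of freedom was left, so only fold changes were computed. Tumor comparisons with at least 4 panel genes or without Cdkn2a or keratin UMIs were not run, because Tumor 1 then had under 10 members.

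The share difference between Tumor and DCIS turned to -1.87 points over all kept cells, -0.467 with at least 4 panel genes, and ran from -5.84 (without Tumor 1) to 24 with 1 library left out. That between Tumor and Prepuberty turned to -1.25 over all kept cells and ran from 1.76 to 31.6, and that between DCIS and Prepuberty from 2.40 to 12.8.

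Of the refits of named genes, 1530 of 1834 kept direction and side of the threshold for Tumor against DCIS, 1265 of 1490 for Tumor against Prepuberty and 819 of 1030 for DCIS against Prepuberty. Of the named genes that were called, 1 changed sign: Aqp1, Tumor against DCIS, was 0.57 with all 6 libraries (edgeR adjusted p = 0.827). Some named genes that were not called also changed sign there and in other settings; with all 6 libraries these included Postn (0.57 to -0.25) and Grem1 (-1.17 to 2.08) for Tumor against DCIS.

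The 4 libraries of the fits share only replicate number 1, so the replicate block was run with all 6. It gave 294, 169 and 25 genes, of which 170, 96 and 6 were among those called without it in 4 libraries. Deviations of same-numbered libraries correlated by 0.134, -0.00708 and 0.129. Prepuberty 2 and Tumor 2 held only 6 and 7 members, so these values cannot decide whether the numbers pair the libraries. The fits with all 6 libraries, the block and the 2 further doublet scorings were chosen after seeing the data.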
